A study of Mus musculus with 6 samples.

Results

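The gene set described here comprises 33 genes of cholesterol handling among the 55536 entries of the deposited table: 18 synthesis enzymes, 4 regulators (SREBP2 itself, its escort and its retention proteins), 6 genes of uptake and movement inside the cell, 3 esterifying enzymes and 2 efflux pumps. The members were selected by gene name, and each name matched a single entry. RNA was sequenced from 3 livers of Sirt5-/- mice, which lack the mitochondrial deacylase SIRT5, and from 3 livers of Sirt5+/+ mice. All animals were C57BL/6 males that were injected at 4 weeks of age with 50 µg of a plasmid for myc-tagged YAP5SA, an activated form of the growth regulator YAP, and 10 µg of a piggyBac transposase plasmid, which inserts the first one into the genome. The livers were taken 20 days after this hydrodynamic injection, in which a large volume forced into the circulation carries plasmid into liver cells. Both groups therefore carry YAP5SA, driven by a CMV promoter that is not restricted to one cell type, and livers without YAP5SA were not analysed here. Nothing in the labels states that the livers of a group came from separate animals, so the p-values below measure the spread between these samples.

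Cells build cholesterol from acetyl-CoA, first by the mevalonate arm, which ends in farnesyl diphosphate, and then by the squalene and sterol arm. When sterol in the endoplasmic reticulum is low, SCAP carries the transcription factor SREBP2 to the Golgi for cleavage, and the released fragment switches on the synthesis genes; when sterol is high, the INSIG proteins hold the complex back. Hepatocytes also take cholesterol up from lipoproteins, store it as esters made by the SOAT enzymes and return it to lipoproteins through ABC transporters, whose genes respond to the sterol sensor LXR. Macrophages store and export cholesterol with partly different members of the same families.

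Promoter sequence was examined because the synthesis genes share SREBP2 and its partner NF-Y as known regulators. RefSeq promoter windows (250 bases before to 50 after a gene start, GRCm38.p6) were given for 25 of the 33 members, including 15 of the 18 synthesis enzymes. Each window was searched on both strands for the SREBP letters TCACNCCAC, the NF-Y letters CCAAT and the canonical LXR element (a direct repeat spaced by 4 bases, searched as exact letters). Stretches upstream of 5 members are printed 5′ to 3′ on the gene's strand, with SREBP and NF-Y letters in capitals. Hmgcs1 (chr13:119690101-119690350, plus strand), Ebp (chrX:8193513-8193762, minus strand) and Sc5d (chr9:42264301-42264550, minus strand) stand for the synthesis enzymes, the first because its RNA did not move with the others. Soat1 (chr1:156474332-156474578, minus strand) is the esterifying enzyme that rose. Abca1 (chr4:53159896-53160145, minus strand) is an efflux gene whose window held none of the 3 exact letter strings searched.
Hmgcs1: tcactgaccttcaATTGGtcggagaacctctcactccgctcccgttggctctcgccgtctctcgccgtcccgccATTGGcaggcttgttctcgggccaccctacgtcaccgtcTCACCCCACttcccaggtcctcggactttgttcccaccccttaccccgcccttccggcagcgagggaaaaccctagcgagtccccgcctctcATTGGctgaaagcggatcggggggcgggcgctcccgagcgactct
Ebp: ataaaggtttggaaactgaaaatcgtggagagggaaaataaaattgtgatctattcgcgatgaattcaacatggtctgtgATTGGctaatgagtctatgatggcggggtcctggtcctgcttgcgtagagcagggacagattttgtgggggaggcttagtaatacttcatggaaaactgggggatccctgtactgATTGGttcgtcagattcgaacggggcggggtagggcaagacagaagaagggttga
Sc5d: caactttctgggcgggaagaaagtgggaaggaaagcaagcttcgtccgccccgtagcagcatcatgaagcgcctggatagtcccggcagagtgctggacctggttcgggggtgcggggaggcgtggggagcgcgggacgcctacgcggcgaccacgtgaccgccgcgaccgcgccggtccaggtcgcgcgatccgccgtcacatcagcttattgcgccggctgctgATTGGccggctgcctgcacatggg
Soat1: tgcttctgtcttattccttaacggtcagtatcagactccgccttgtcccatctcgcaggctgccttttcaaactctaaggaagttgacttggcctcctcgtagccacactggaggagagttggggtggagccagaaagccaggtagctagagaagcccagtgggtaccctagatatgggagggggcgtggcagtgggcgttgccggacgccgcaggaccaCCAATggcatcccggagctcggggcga
Abca1: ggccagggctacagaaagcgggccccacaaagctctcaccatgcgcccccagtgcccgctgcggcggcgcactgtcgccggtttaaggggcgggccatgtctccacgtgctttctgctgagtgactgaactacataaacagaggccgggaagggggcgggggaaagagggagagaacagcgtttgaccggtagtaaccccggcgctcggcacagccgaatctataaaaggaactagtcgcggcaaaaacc
The SREBP letters were present in 1 of the 25 members with a window, Hmgcs1, as TCACCCCAC from -137 to -129 relative to the RefSeq start, and in 1.44% of the 27025 genes with a window. The NF-Y letters were present in 22 of the 25 members and in 41.1% of genes with a window; Acat2, Scap and Abca1 were the members without them. Hmgcs1 had 3 of these matches upstream of its start and Ebp had 2, and none overlapped the SREBP letters of Hmgcs1. The exact LXR letters were in no member window, against 0.0148% of genes. A search for exact letters misses elements that differ from them by any base. It therefore does not show that Abca1 or another member lacks an LXR element. Leaving off the last base of the SREBP letters (TCACNCCA, chosen after the windows were seen) added Msmo1 and Srebf2, against 4.97% of genes. A match is a string of letters and not a measured binding site, and these matches were present upstream of genes that fell, genes that rose and genes that passed no test.

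Library totals ran from 19307808 to 24330797 estimated counts, and a floor of 3 counts in a library corresponds to 0.0827 to 0.393 CPM (counts scaled to a common library size, here with TMM factors). Sirt5, the targeted gene, had 14, 45 and 18 counts in the Sirt5-/- libraries, against 352, 441 and 96 in the Sirt5+/+ libraries, which accords with the labels. The share of mitochondrially encoded RNA was 40.8, 21.5 and 17.5% in the Sirt5-/- libraries, against 7.20, 6.58 and 46.4% in the Sirt5+/+ libraries, listed by replicate number. Sirt5+/+ replicate 3 therefore stands apart from the other Sirt5+/+ libraries, and its TMM factor was the lowest at 0.396, against 0.857 to 1.68 for the other 5 libraries. Sirt5-/- replicate 1 had the highest mitochondrial share of its group and the lowest TMM factor of that group, 0.857. Sirt5+/+ replicate 3 had the lowest CPM of the Sirt5+/+ libraries in 28 of the 33 members, including all 11 enzymes of the sterol arm. Member results whose call turns on Sirt5+/+ replicate 3 are therefore given with and without it. Of 14799 genes tested, 17.1% were lower and 17.4% higher in Sirt5-/- livers at an adjusted p under 0.05 (edgeR quasi-likelihood test, Benjamini-Hochberg adjustment over all genes), 34.5% in all, and the median log2 fold change was -0.08. Hepatocyte markers were present in every library: their summed level was 36740, 28360 and 20800 CPM in Sirt5-/- livers, against 133600, 101000 and 93650 CPM in Sirt5+/+ livers. Much of this sum was Alb, at 18140, 12680 and 9085 CPM in Sirt5-/- livers, against 58200, 49950 and 49640 CPM in Sirt5+/+ livers. Alb was without overlap but did not pass the test (adjusted p = 0.0607, edgeR).

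The question put to the gene set was whether SREBP2-driven synthesis moved with uptake, storage and efflux. Of the 18 synthesis enzymes, 15 were lower in Sirt5-/- livers and none was higher, with a median log2 fold change of -1.72 (Sirt5-/- minus Sirt5+/+). Hmgcs1, Mvd and Sqle did not pass the test. Among the 11 uptake, storage and efflux genes, 4 were lower and 2 higher, with a median of -0.66. For all genes tested the shares were 17.1% lower and 17.4% higher, so the count of 2 higher genes is near the share of all genes. Soat1 and Abcg1 were the higher ones, and Scarb1, Stard4, Soat2 and Lcat the lower ones; without Sirt5+/+ replicate 3, 6 were lower, Lipa and Npc1 included, and the same 2 were higher. For 13 of the synthesis enzymes every Sirt5-/- library was below every Sirt5+/+ library, whereas 24.0% of all genes tested had such separation downward and 25.8% upward. The count of 15 lower enzymes was 2 with library totals in place of TMM factors. Without Sirt5-/- replicates 1, 2 or 3 in turn it was 10, 7 and 6. Without Sirt5+/+ replicates 1, 2 or 3 in turn it was 9, 11 and 17. Without Sirt5-/- replicate 1 and Sirt5+/+ replicate 3 together, 17 synthesis enzymes and 6 uptake, storage and efflux genes were lower. In that fit 3535 of all 15527 genes tested were lower. In a bulk sample, fewer hepatocytes and less RNA per hepatocyte cannot be told apart.

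**Figure D1:**
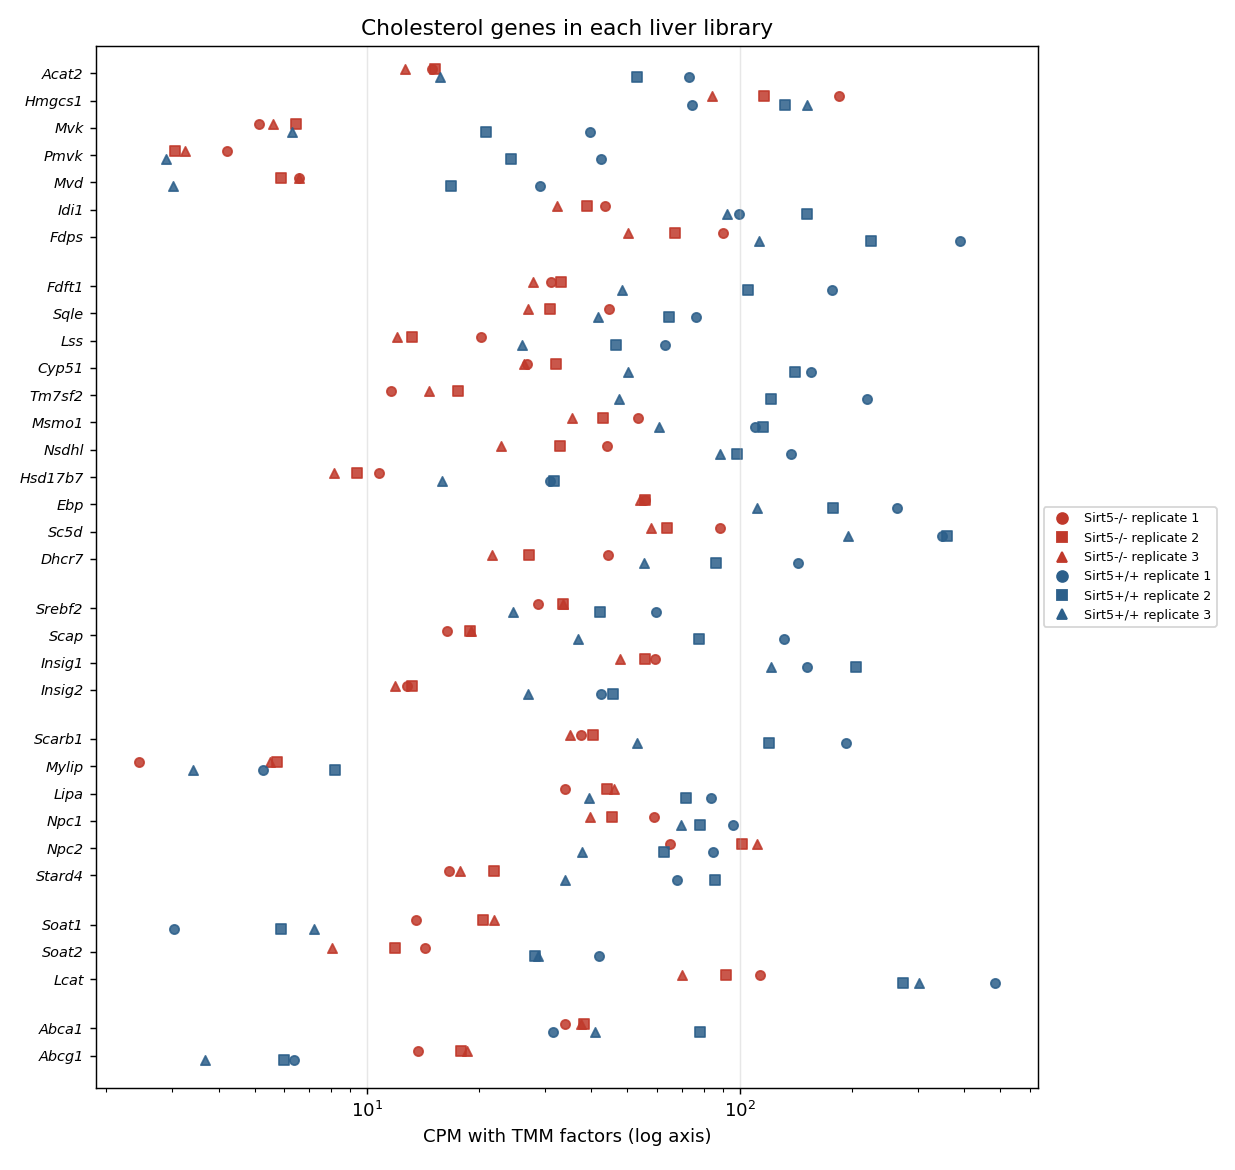
CPM with TMM factors (log axis) of the 33 members, a row per gene in the order of the roles, with red symbols for Sirt5-/- libraries, blue symbols just below them for Sirt5+/+ libraries, and circle, square and triangle for replicates 1, 2 and 3. The red symbols lie to the left in most synthesis enzymes and to the right in Soat1 and Abcg1, and the blue triangle (Sirt5+/+ replicate 3) is the lowest Sirt5+/+ value in 28 members.

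In the mevalonate arm, 5 of 7 enzymes were lower in Sirt5-/- livers, against 17.1% of all genes tested. Fdps, the synthase of farnesyl diphosphate, had 90.5, 67.2 and 50.1 CPM in Sirt5-/- livers, against 390.5, 225 and 113 CPM in Sirt5+/+ livers. The groups did not overlap, and the log2 fold change was -1.81 ± 0.47 (SE; adjusted p = 0.019, edgeR). Its call was lost without Sirt5-/- replicate 2 (adjusted p = 0.0794), Sirt5-/- replicate 3 (0.0877) or Sirt5+/+ replicate 1 (0.0522). Idi1, which interconverts the pair of isoprene units that Fdps joins, had 43.4, 39.0 and 32.4 CPM in Sirt5-/- livers, against 99.6, 151.5 and 92.5 CPM in Sirt5+/+ livers. All 3 Sirt5-/- libraries were below the lowest Sirt5+/+ library (log2 fold change -1.58 ± 0.29, adjusted p = 0.00489), and replicate 3 was close to replicate 1 within the Sirt5+/+ group.

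Mevalonate kinase, encoded by Mvk, and phosphomevalonate kinase, encoded by Pmvk, add phosphates to mevalonate in turn. Pmvk had 4.199, 3.06 and 3.26 CPM in Sirt5-/- livers, against 42.3, 24.3 and 2.88 CPM in Sirt5+/+ livers. Its fall (log2 fold change -2.75 ± 0.75, adjusted p = 0.0228) rests on Sirt5+/+ replicates 1 and 2, because Sirt5+/+ replicate 3 was below every Sirt5-/- library. Mvk had 5.13, 6.45 and 5.61 CPM in Sirt5-/- livers, against 39.8, 20.9 and 6.29 CPM in Sirt5+/+ livers, and here Sirt5+/+ replicate 3 lay inside the Sirt5-/- range (log2 fold change -1.97 ± 0.55, adjusted p = 0.0253). Mvd, the decarboxylase that follows, had 6.59, 5.87 and 6.57 CPM in Sirt5-/- livers, against 29.2, 16.8 and 3.01 CPM in Sirt5+/+ livers, and did not pass the test (-1.38 ± 0.62, adjusted p = 0.12). Without Sirt5+/+ replicate 3 the fold changes of Pmvk, Mvk and Mvd were -3.20, -2.34 and -1.80, with adjusted p of 7.91e-05, 0.00027 and 0.000627. With the replicate number as a block, Mvk (adjusted p = 0.0723) and Pmvk (0.0706) did not pass. Both also lost their calls when any library other than Sirt5+/+ replicate 3 was left out, with adjusted p from 0.0643 to 0.0934.

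Acat2, a cytosolic thiolase that supplies acetoacetyl-CoA, had 14.9, 15.2 and 12.6 CPM in Sirt5-/- livers, against 73.2, 53.1 and 15.7 CPM in Sirt5+/+ livers (log2 fold change -1.74 ± 0.49, adjusted p = 0.0248). It kept its call without Sirt5+/+ replicate 3 and lost it without any other single library (adjusted p 0.0759 to 0.101). Its value is uncertain, since 43.75% of the 31-base words of its transcripts also occur in Acat3, whose own log2 fold change was -2.04 (adjusted p = 0.00263). Hmgcs1, the cytosolic synthase of HMG-CoA at the head of the mevalonate arm, was the exception. It had 185, 116 and 84.3 CPM in Sirt5-/- livers, against 74.7, 132 and 151 CPM in Sirt5+/+ livers, so the groups overlapped fully. The means were 128 ± 51.4 CPM in Sirt5-/- livers and 119 ± 39.8 CPM in Sirt5+/+ livers (SD, n = 3 each), with a log2 fold change of 0.11 ± 0.39 (adjusted p = 0.855, edgeR). The sign turned to -0.26 without Sirt5-/- replicate 1, the library with the highest Hmgcs1, and to -0.12 without Sirt5+/+ replicate 1.

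The ratio of Hmgcs1 to Idi1 in TPM, which corrects for transcript length, was 3.69, 2.57 and 2.25 in Sirt5-/- livers, against 0.653, 0.754 and 1.42 in Sirt5+/+ livers. Its ratio to Fdps was 0.645, 0.547 and 0.536 in Sirt5-/- livers, against 0.0608, 0.186 and 0.429 in Sirt5+/+ livers. In both ratios the Sirt5-/- libraries were higher without overlap. These ratios were chosen after the values were seen and carry no test.

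In the squalene and sterol arm, 10 of 11 enzymes were lower in Sirt5-/- livers, and all 10 had groups that did not overlap. Of all genes tested, 17.1% were lower and 24.0% had such separation downward. The largest fold change among the members was that of Tm7sf2, a sterol C14 reductase. Tm7sf2 had 11.6, 17.6 and 14.7 CPM in Sirt5-/- livers, against 219.5, 121 and 47.4 CPM in Sirt5+/+ livers (log2 fold change -3.15 ± 0.53, adjusted p = 0.00376). The Sirt5+/+ libraries differed from each other more than the Sirt5-/- libraries did, with a mean of 14.6 ± 2.98 CPM in Sirt5-/- livers and 129 ± 86.3 CPM in Sirt5+/+ livers (SD, n = 3 each). Its annotated exons overlap those of Vps51 on the same strand, and 13.28% of its 31-base words are shared.

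Sc5d, the sterol C5 desaturase, had 88.5, 63.8 and 57.9 CPM in Sirt5-/- livers, against 349.8, 360.1 and 195 CPM in Sirt5+/+ livers. The lowest Sirt5+/+ library was above the highest Sirt5-/- library (log2 fold change -2.11 ± 0.35, adjusted p = 0.00363). Cyp51, the lanosterol demethylase, had 26.9, 32.2 and 26.4 CPM in Sirt5-/- livers, against 155, 141 and 50.3 CPM in Sirt5+/+ livers (-2.02 ± 0.42, adjusted p = 0.00767). Ebp, the sterol isomerase, had 55.6, 55.7 and 54.1 CPM in Sirt5-/- livers, against 264, 178 and 111 CPM in Sirt5+/+ livers (-1.74 ± 0.35, adjusted p = 0.0068). The Sirt5-/- values of Ebp lay within 2 CPM of each other. Lss, which closes squalene epoxide into the first sterol, had 20.2, 13.2 and 12.01 CPM in Sirt5-/- livers, against 63.0, 46.5 and 26.1 CPM in Sirt5+/+ livers (-1.59 ± 0.37, adjusted p = 0.0118). Of these 4 enzymes Lss alone lost its call when a library was left out, without Sirt5-/- replicate 2 (0.0623) or 3 (0.0655).

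Dhcr7, which makes cholesterol from its immediate precursor, had 44.4, 27.3 and 21.7 CPM in Sirt5-/- livers, against 143, 86.4 and 55.3 CPM in Sirt5+/+ livers (-1.61 ± 0.42, adjusted p = 0.0187). The remaining enzymes that fell were Fdft1 (squalene synthase), Msmo1 (sterol C4 oxidase), Nsdhl (sterol C4 decarboxylating dehydrogenase) and Hsd17b7 (the C3 ketoreductase), with log2 fold changes from -1.84 to -1.12. Nsdhl kept its call whichever library was left out. Dhcr7 lost its call without Sirt5-/- replicates 2 or 3 or Sirt5+/+ replicate 1 (adjusted p 0.0556 to 0.0869), Fdft1 without any Sirt5-/- library (0.0512 to 0.0661), Hsd17b7 without Sirt5-/- replicate 3 (0.0501), and Msmo1 without any library other than Sirt5+/+ replicate 3 (0.0506 to 0.127). Fdft1 overlaps Ctsb on the opposite strand, and since strand use in the counting is not given in the sources used here, their reads may not be separable. Ctsb had a log2 fold change of 0.44 (adjusted p = 0.364). Sqle, the epoxidase that acts on squalene, had 44.6, 30.98 and 27.1 CPM in Sirt5-/- livers, against 76.3, 64.7 and 41.7 CPM in Sirt5+/+ livers. Only the highest Sirt5-/- and the lowest Sirt5+/+ library overlapped, and the change did not pass the test (-0.83 ± 0.31, adjusted p = 0.0717). Without Sirt5+/+ replicate 3 it was -0.99 with an adjusted p of 0.0115.

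Among the regulators, Srebf2, which encodes SREBP2, did not pass the test, while Scap, Insig1 and Insig2 were lower in Sirt5-/- livers. Srebf2 had 28.7, 33.7 and 33.6 CPM in Sirt5-/- livers, against 59.7, 42.2 and 24.6 CPM in Sirt5+/+ livers (log2 fold change -0.40 ± 0.33, adjusted p = 0.373, edgeR). Replicates 1 and 2 of the Sirt5+/+ group were above every Sirt5-/- library and replicate 3 was below them all. Without replicate 3 the value was -0.62 (adjusted p = 0.0442). Without the library richest in mitochondrial RNA of each genotype (Sirt5-/- replicate 1 and Sirt5+/+ replicate 3) it was -0.55 (adjusted p = 0.108). With library totals in place of TMM factors it was 0.14. Scap had 16.4, 18.9 and 19.0 CPM in Sirt5-/- livers, against 131, 77.7 and 36.8 CPM in Sirt5+/+ livers (-2.18 ± 0.43, adjusted p = 0.00659). Its groups did not overlap, and 11.28% of its 31-base words lie in an antisense transcript.

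Insig1, itself a known SREBP target, had 59.1, 55.6 and 47.8 CPM in Sirt5-/- livers, against 152, 205 and 122 CPM in Sirt5+/+ livers (log2 fold change -1.56 ± 0.29, adjusted p = 0.00509). Insig2, which also has a liver-specific transcript in mouse, had 12.8, 13.2 and 11.9 CPM in Sirt5-/- livers, against 42.4, 45.7 and 27.1 CPM in Sirt5+/+ livers (-1.61 ± 0.26, adjusted p = 0.00327). Neither gene overlapped between groups. The ratio of Insig2 to Insig1 in TPM was 0.217, 0.285 and 0.317 in Sirt5-/- livers, against 0.444, 0.389 and 0.344 in Sirt5+/+ livers, a log2 difference of -0.52. An exact two-sided permutation test gave p = 0.1, adjusted to 0.15 over 3 ratios; 0.1 is the smallest p that 3 libraries against 3 allow. The same ratio of estimated counts differed by -0.04 on the log2 scale, so the TPM value depends on the length assigned to the transcripts.

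The genes of uptake and movement inside the cell were divided. Scarb1, the receptor for HDL, had 37.5, 40.5 and 35.0 CPM in Sirt5-/- livers, against 192, 119.6 and 52.9 CPM in Sirt5+/+ livers (log2 fold change -1.69 ± 0.44, adjusted p = 0.0183). Stard4, a carrier of sterol between membranes and a known SREBP2 target, had 16.6, 21.9 and 17.7 CPM in Sirt5-/- livers, against 67.8, 85.8 and 34.1 CPM in Sirt5+/+ livers (-1.74 ± 0.35, adjusted p = 0.00724). Both were without overlap, and they were the only 2 of these 6 genes past the test. Of all genes tested, 17.1% were lower and 17.4% higher. Scarb1 lost its call without any Sirt5-/- library or without Sirt5+/+ replicate 2 (adjusted p 0.0513 to 0.0803).

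The lysosomal genes gave smaller differences. Npc1, the membrane protein that exports cholesterol from lysosomes, had 58.8, 45.5 and 39.5 CPM in Sirt5-/- livers, against 96.0, 78.2 and 69.6 CPM in Sirt5+/+ livers. The groups did not overlap, but the adjusted p was 0.0542 (log2 fold change -0.76 ± 0.26, edgeR); in the authors' deposited table the value was -0.73 with an adjusted p of 0.0335. Without Sirt5+/+ replicate 3 it was -0.81 (adjusted p = 0.0224, edgeR). Npc2, the soluble partner that hands cholesterol to NPC1, had 65.1, 102 and 112 CPM in Sirt5-/- livers, against 84.7, 62.6 and 37.9 CPM in Sirt5+/+ livers (0.59 ± 0.36, adjusted p = 0.238). Its groups overlapped through Sirt5-/- replicate 1 and Sirt5+/+ replicate 1. Lipa, the lysosomal acid lipase that frees cholesterol from esters, had 33.9, 44.0 and 45.9 CPM in Sirt5-/- livers, against 83.9, 71.9 and 39.4 CPM in Sirt5+/+ livers (-0.66 ± 0.32, adjusted p = 0.145), and was at -0.86 (adjusted p = 0.0104) without Sirt5+/+ replicate 3. Mylip, the LXR-induced ligase that marks lipoprotein receptors for degradation, was low in all libraries, at 2.45, 5.73 and 5.49 CPM in Sirt5-/- livers and 5.27, 8.21 and 3.41 CPM in Sirt5+/+ livers, and overlapped (-0.31 ± 0.44, adjusted p = 0.612; 0.28 with library totals).

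The intracellular esterifying enzymes moved in opposite directions. Soat1, the form used by macrophages and many other cells, had 13.5, 20.5 and 22.0 CPM in Sirt5-/- livers, against 3.04, 5.89 and 7.21 CPM in Sirt5+/+ livers. The lowest Sirt5-/- library was above the highest Sirt5+/+ library (log2 fold change 1.82 ± 0.36, adjusted p = 0.00663, edgeR). Soat2, the form of hepatocytes and enterocytes, had 14.4, 11.9 and 8.06 CPM in Sirt5-/- livers, against 41.9, 28.3 and 28.8 CPM in Sirt5+/+ livers (-1.53 ± 0.29, adjusted p = 0.00567). Here every Sirt5-/- library was below every Sirt5+/+ library.

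Per length, the ratio of Soat1 to Soat2 in TPM was 0.228, 0.54 and 1.21 in Sirt5-/- livers, against 0.0245, 0.0868 and 0.0633 in Sirt5+/+ livers. The log2 ratio averaged -0.89 ± 1.17 in Sirt5-/- livers and -4.09 ± 0.90 in Sirt5+/+ livers (SD, n = 3 each), a difference of 3.20. The exact two-sided permutation test gave p = 0.1 (adjusted 0.15 over 3 ratios), the smallest it can give here. In TPM, Soat1 was the more abundant transcript of the pair only in Sirt5-/- replicate 3. In estimated counts, Soat1 had 232, 742 and 796 in Sirt5-/- livers and Soat2 had 246, 432 and 292. Soat1 was thus also above Soat2 in Sirt5-/- replicate 2, and the order depends on the length assigned to the transcripts. Lcat, the plasma enzyme that esterifies cholesterol on HDL and is secreted by hepatocytes, had 113, 91.8 and 69.9 CPM in Sirt5-/- livers, against 484, 274 and 302 CPM in Sirt5+/+ livers, with no overlap (-1.95 ± 0.35, adjusted p = 0.00468).

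The efflux pumps also parted. Abcg1, which loads cholesterol onto formed HDL and is abundant in macrophages, had 13.7, 17.9 and 18.6 CPM in Sirt5-/- livers, against 6.36, 6.00 and 3.67 CPM in Sirt5+/+ livers. All 3 Sirt5-/- libraries were above the Sirt5+/+ libraries (log2 fold change 1.63 ± 0.28, adjusted p = 0.00409). Abca1, which passes cholesterol to lipid-poor apolipoprotein A-I, had 33.9, 38.2 and 37.6 CPM in Sirt5-/- livers, against 31.6, 78.1 and 41.0 CPM in Sirt5+/+ livers. Its groups overlapped, with the highest value in Sirt5+/+ replicate 2, and it did not pass the test (-0.46 ± 0.35, adjusted p = 0.336; 0.08 with library totals). Soat1 and Abcg1 kept their direction and their call in all 17 alternative settings, with log2 fold changes of 1.55 to 3.75 for Soat1 and 1.49 to 3.57 for Abcg1.

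The ratio of Abca1 to Scarb1 in TPM was 0.201, 0.209 and 0.242 in Sirt5-/- livers, against 0.036, 0.146 and 0.351 in Sirt5+/+ livers. The Sirt5-/- libraries were close together and inside the Sirt5+/+ range, and the difference of 0.82 on the log2 scale did not pass (exact two-sided permutation p = 0.7). Without Sirt5+/+ replicate 1 it was -0.06. Taken from estimated counts instead of TPM, the difference was 1.15 (p = 0.1, the smallest this exact test can give), with every Sirt5-/- library above every Sirt5+/+ library. The length assigned to Abca1, relative to the median gene of the library, was 3.01 in Sirt5+/+ replicate 3 and 5.395 to 6.242 in the other 5 libraries. The ratio of Abcg1 to Abca1 in TPM was 0.726, 0.849 and 0.882 in Sirt5-/- livers, against 0.359, 0.139 and 0.0769 in Sirt5+/+ livers, and was chosen after the values were seen, with no test.

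**Figure D2:**
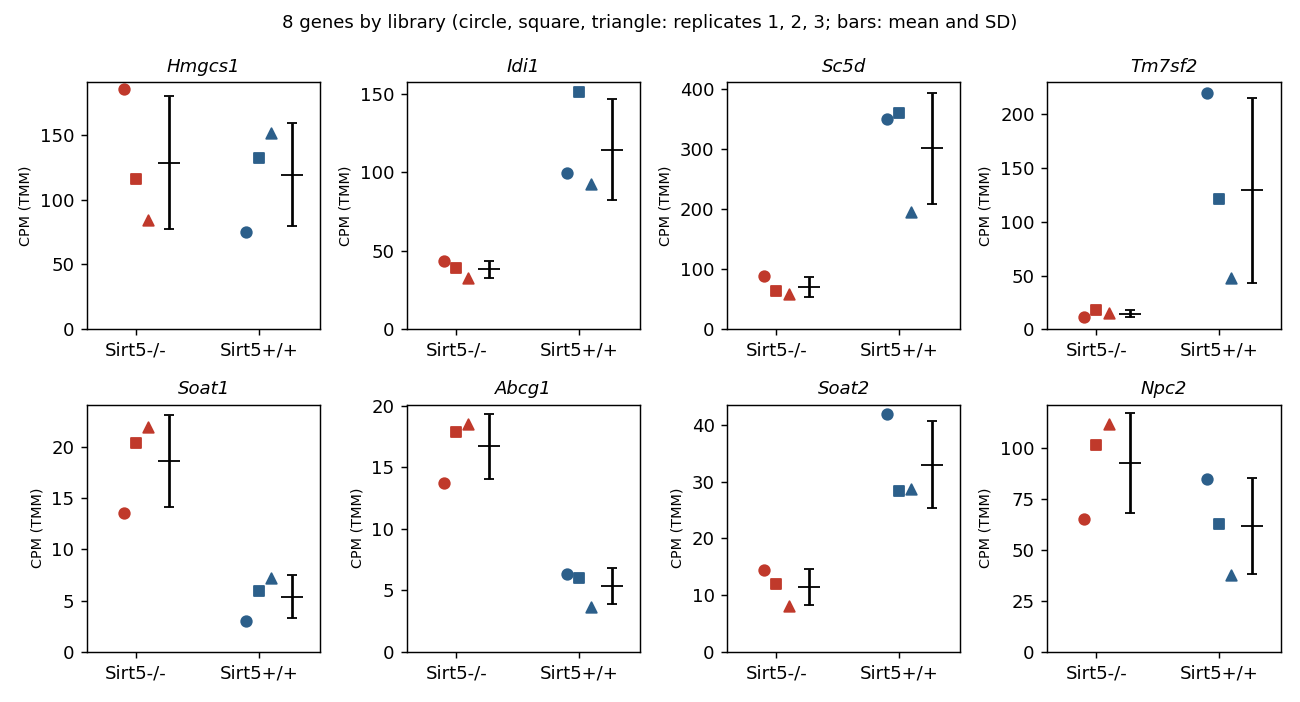
CPM (TMM factors) of 8 members in each library, with circle, square and triangle for replicates 1, 2 and 3, the mean as a black dash with the SD as a bar, and Sirt5-/- to the left of Sirt5+/+ in every panel. Hmgcs1 and Npc2 overlap between groups, Idi1, Sc5d, Tm7sf2 and Soat2 are lower in all 3 Sirt5-/- libraries, and Soat1 and Abcg1 are higher in all 3.

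Levels of different genes were compared per length, in the TPM deposited by the authors, within a library. Fdps was at 55.6, 79.5 and 67.9 TPM in Sirt5-/- livers, against 376, 273 and 29.5 TPM in Sirt5+/+ livers, which was 18.4, 18 and 16.9% of the summed TPM of the 18 synthesis enzymes in Sirt5-/- livers and 25.8, 20.6 and 14.7% in Sirt5+/+ livers. Lcat was the highest of the 33 members in every library, at 65.6, 98.1 and 86.8 TPM in Sirt5-/- livers and 428, 300.3 and 73.9 TPM in Sirt5+/+ livers. Mylip, Abcg1, Hsd17b7 and Abca1 were under 10 TPM in every library. Summed over the synthesis enzymes, TPM was 302, 442 and 403 in Sirt5-/- livers, against 1460, 1330 and 200 in Sirt5+/+ livers. Sirt5+/+ replicate 3 had the lowest sum of the 6, and TPM, unlike the CPM used for the tests, carries no correction for its mitochondrial share. The transcript length that turns counts into TPM also differed between libraries for Nsdhl, Scap and Sc5d, by 3.99, 2.51 and 2.25 times, and Nsdhl, lower in counts, overlapped between groups in TPM (43.2 to 66.6 in Sirt5-/- livers and 52.0 to 69.7 in Sirt5+/+ livers).

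The mean level of the 18 synthesis enzymes in a library, as log2 CPM centred on each gene's mean, was -0.54, -0.76 and -0.98 in Sirt5-/- livers, against 1.37, 1.01 and -0.11 in Sirt5+/+ livers. The same mean over the 11 uptake, storage and efflux genes was -0.34, -0.07 and -0.20 in Sirt5-/- livers, against 0.40, 0.41 and -0.20 in Sirt5+/+ livers. Synthesis minus the other genes was -0.20, -0.68 and -0.78 in Sirt5-/- livers, against 0.97, 0.60 and 0.09 in Sirt5+/+ livers. The synthesis level was lower in every Sirt5-/- library, and so was its difference from the other genes, while the level of uptake, storage and efflux overlapped at Sirt5+/+ replicate 3. No p was computed for these means, because their members were chosen with results known.

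The fall of the synthesis enzymes stood beside a fall of hepatocyte markers and a rise of some markers of other cells. Of the 18 hepatocyte markers, 14 were lower and none higher, with a median log2 fold change of -1.92. Of the 16 macrophage and Kupffer cell markers, 6 were higher (Adgre1, Cd68, Csf1r, Lyz2, Ccr2 and Trem2) and 3 lower (Clec4f, Marco and Cd5l, which mark resident Kupffer cells). Their summed level was 1593, 2363 and 2569 CPM in Sirt5-/- livers, against 486.5, 590.3 and 766.7 CPM in Sirt5+/+ livers. Much of this sum came from Lyz2 (618, 1099 and 1306 CPM in Sirt5-/- livers) and Spp1 (536.5, 617 and 535.5 CPM). Spp1, also on the cholangiocyte list, did not pass the test (adjusted p = 0.0621, edgeR). Stellate cell and fibroblast markers summed to 2308, 2406 and 2212 CPM in Sirt5-/- livers, against 411, 601 and 700.0 CPM in Sirt5+/+ livers, with 5 of 9 higher. Of the T and NK cell markers 7 of 9 tested were higher, and of the B cell markers 2 of 5. Of the cholangiocyte markers 2 of 8 were higher and of the neutrophil markers 1 of 2 tested (Csf3r), while 4 of 7 endothelial markers were lower. Over all genes tested, 17.4% were higher and 17.1% lower, so the cholangiocyte count of 2 of 8 is near the share of all genes. No marker of these lists was at 0 in all 6 libraries. The part of these cell types in the rise of Soat1 and Abcg1 was not tested.

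**Figure D3:**
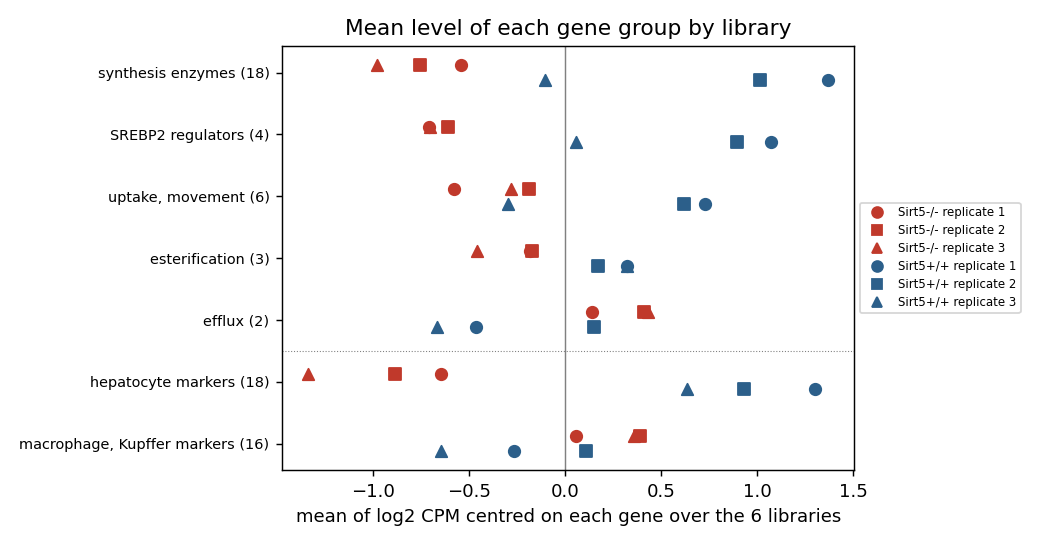
Mean of log2 CPM, centred on each gene over the 6 libraries, for the genes of each role and for 2 marker lists (number of genes in brackets), with red symbols for Sirt5-/- and blue symbols for Sirt5+/+ libraries and circle, square and triangle for replicates 1, 2 and 3. Synthesis runs from -0.98 to -0.54 in Sirt5-/- libraries and from -0.11 to 1.37 in Sirt5+/+ libraries, hepatocyte markers are also lower in every Sirt5-/- library, and the efflux genes overlap only slightly in the opposite direction.

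Each gene was also set against the mean log2 CPM of the 18 hepatocyte markers in its library, which was 9.61, 9.36 and 8.91 in Sirt5-/- livers, against 11.55, 11.18 and 10.88 in Sirt5+/+ livers. On that scale 0.331% of all genes were lower and 76.9% higher in Sirt5-/- livers (limma, adjusted p under 0.05), and the median gene was at 1.92. None of the synthesis enzymes was lower and 2 were higher, Hmgcs1 (2.00 ± 0.49, adjusted p = 0.00596) and Sqle (1.09 ± 0.36, adjusted p = 0.021), with a median of 0.33 over the 18. Of the 11 uptake, storage and efflux genes 7 were higher, namely Mylip, Lipa, Npc1, Npc2, Soat1, Abca1 and Abcg1, with a median of 1.31. That share and that median are below those of all genes. Soat1 was at 3.75 ± 0.58 (adjusted p = 0.000757) and Abcg1 at 3.57 ± 0.42 (adjusted p = 0.000268). The direction of the synthesis median therefore turned on this scale, which shifts every gene by the fall of the markers. Relative to the median of all genes, the synthesis median was -1.64 with TMM factors and -1.59 on this scale. Among the regulators Srebf2 was higher on it (1.60, adjusted p = 0.00723).

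**Figure D4:**
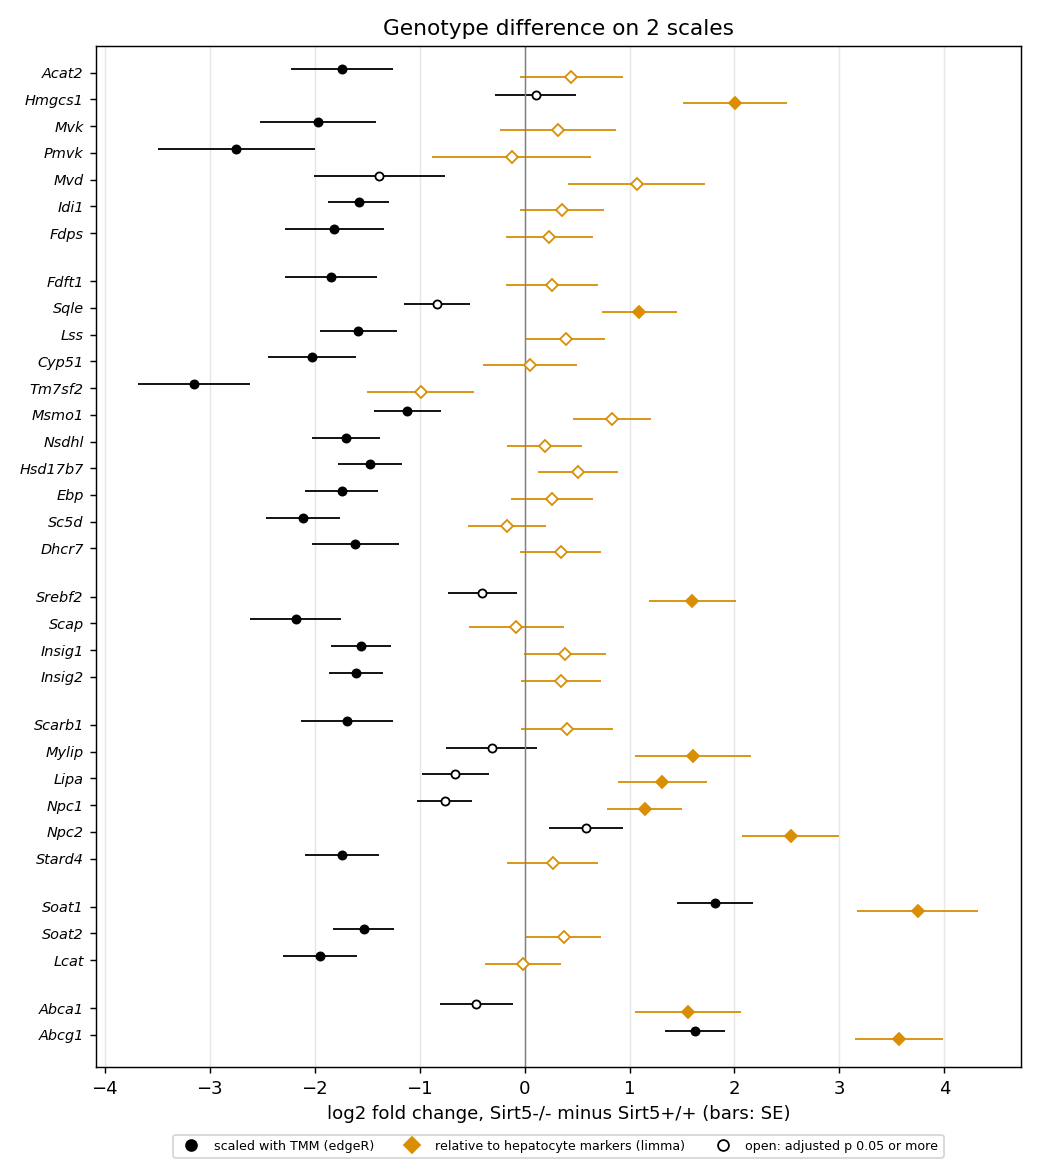
Log2 fold change (Sirt5-/- minus Sirt5+/+) of the 33 members with its SE as a bar, on TMM-scaled counts (black circles, edgeR) and relative to hepatocyte markers (orange diamonds, limma); filled symbols have an adjusted p under 0.05. The black symbols of the synthesis enzymes lie between -3.15 and 0.11 and the orange ones between -0.99 and 2.00, and Soat1 and Abcg1 are filled and above 0 on both scales.

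Other genes of synthesis and SREBP processing were mixed: of 17 tested, 7 were lower, 1 was higher and 9 did not pass, with a median of -0.77. The shares of all genes tested were 17.1% lower and 17.4% higher. Acss2, which makes cytosolic acetyl-CoA from acetate, was among those that fell (-2.94 ± 0.59, adjusted p = 0.00684). It had 17.0, 15.5 and 12.3 CPM in Sirt5-/- livers, against 181, 132 and 29.6 CPM in Sirt5+/+ livers, with no overlap. Nfya, a subunit of NF-Y, was the higher one, at 15.3, 15.7 and 16.2 CPM in Sirt5-/- livers, against 9.73, 8.71 and 10.4 CPM in Sirt5+/+ livers (0.72 ± 0.21, adjusted p = 0.0295). It lost its call without any single Sirt5-/- library or without Sirt5+/+ replicate 2, with adjusted p from 0.0785 to 0.128, and with the replicate number as a block (0.0908). Nfyb, which encodes another NF-Y subunit, was lower, at 9.39, 9.40 and 9.75 CPM in Sirt5-/- livers, against 16.6, 15.7 and 16.5 CPM in Sirt5+/+ livers, with no overlap (-0.77 ± 0.20, adjusted p = 0.0198). It lost its call without any single Sirt5-/- library (0.0639 to 0.117) and with the block (0.0716). Nfyc, the remaining subunit, overlapped between groups and did not pass (-0.31 ± 0.25, adjusted p = 0.363).

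Of 22 other sterol transport genes, 9 were lower, 4 higher and 9 not past the test, with a median of -0.72. Among all genes tested 17.1% were lower and 17.4% higher, so the count of 4 higher genes is near the share of all genes. The smallest p among those that fell were of Lipc, the hepatic lipase (-2.15 ± 0.28, adjusted p = 0.00199), and of Abcg5 (-1.98 ± 0.26, adjusted p = 0.00202) and Abcg8 (-2.47 ± 0.41, adjusted p = 0.00355), which together form the pump that moves sterol into bile. Abcg5 had 23.3, 26.6 and 19.2 CPM in Sirt5-/- livers, against 106, 92.2 and 74.4 CPM in Sirt5+/+ livers. Msr1, the macrophage scavenger receptor, had 29.3, 40.1 and 51.0 CPM in Sirt5-/- livers, against 4.60, 9.96 and 6.03 CPM in Sirt5+/+ livers (2.54 ± 0.36, adjusted p = 0.00231). Pltp, the phospholipid transfer protein of plasma (1.71 ± 0.30, adjusted p = 0.00401), and Gramd1b, a carrier of sterol from the plasma membrane (1.52 ± 0.29, adjusted p = 0.00586), were also higher. All 6 of these named transport genes were without overlap between the groups, as were 24.0% of all genes tested downward and 25.8% upward.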

How the data were processed

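Total RNA of 6 livers was sequenced, and 1 table with a row per gene was deposited. The submitters' processing notes list RSEM 1.3.1, DESeq2 1.24.0 and HISAT2 2.1.0; their roles, options, strand setting and genome build are not given in the sources used here. The deposited expected counts are the authors' estimates of reads per gene; some are fractional, and no scaling for library size was applied. The deposited TPM values of the authors are scaled for transcript length, and in the columns used they sum to 959609 to 987537. The authors' deposited log2 fold changes and p-values were used only for the sentences that name the authors' deposited table: 24 members were called there and in edgeR, and 1 more, Npc1, in that table alone. IDs and names of all 55536 entries match GENCODE M21, so coordinates are on GRCm38; 30117 entries had no count.

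Expected counts were rounded, filtered with filterByExpr (minimum count 10, minimum total 15), scaled with TMM factors and tested by quasi-likelihood in edgeR 4.0.16 (R 4.3.3), two-sided, with genotype as the only term. Benjamini-Hochberg adjustment ran over 14799 genes, and calls needed an adjusted p under 0.05. The SE is the absolute log2 fold change over the square root of its F value, and the common biological coefficient of variation was 0.373. Levels relative to hepatocyte markers were tested with limma 3.58.1 on log2 CPM (prior count 2), and ratios of TPM with exact permutation tests on the log2 scale (scipy 1.17.1; pseudocount 0.1). The count test was tested on simulated data. Libraries of a group differed by far more than counting noise (chi-square per degree of freedom 35.45 or more). Counting floors cover counting error only. Shared sequence is the percent of a gene's 31-base words found in other genes, which was under 10% for 26 members and higher for Acat2, Hmgcs1, Idi1, Fdps, Fdft1, Tm7sf2 and Scap, so these 7 are uncertain. Alternatives were the replicate number as a block, other scalings, filters and tools, leaving out libraries, and removing mitochondrial genes with 7 nuclear copies.

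All 33 members are named, with up to 3 genes of smallest p in each direction from 2 lists of other pathway genes, 1 of which, Faxdc2, was not analysed here. Of the genes this rule selects, 2 are not reported here, though they are counted. The members and lists were chosen with earlier results of these data known. Nfyb and Nfyc were named after their values were seen, as the other NF-Y subunits, and Vps51, Acat3 and Ctsb as genes that share sequence with members.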

Additional observations from a re-analysis of the deposited data

How the results depend on the processing

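With 3 libraries a group the counts of calls depend on single libraries, and depth leaves levels under 0.0827 to 0.393 CPM, by library, indistinct from 0. Over all genes, 5100 were called, 2531 to 7647 when 1 library was left out, and 2763 with library totals, which moved the median of all genes to 0.60 (log2) and that of the synthesis enzymes to -1.22. With library totals 2 synthesis enzymes (Pmvk and Tm7sf2) were lower and 0 of the uptake, storage and efflux genes were lower, 20 members lost their calls (adjusted p 0.0794 to 0.558), and Srebf2 (0.14), Mylip (0.28) and Abca1 (0.081) changed sign. Leaving out 1 library gave 6 to 17 lower synthesis enzymes, and 14 of 24 called members kept their call in all 6 such fits. Hmgcs1 ran from -0.26 to 0.37, Mylip from -0.50 to 0.0424 and the Abca1 to Scarb1 ratio from -0.0555 to 1.58; the cause was not tested.

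Relative to hepatocyte markers, 11435 genes were called, with 0.331% of all genes lower and 76.9% higher. Of the 18 synthesis enzymes 0 were lower and 2 higher. Of the 11 uptake, storage and efflux genes 0 were lower and 7 higher. By the construction of this scale values rise where the markers fell. The sign changed for Acat2 (0.44), Mvk (0.32), Mvd (1.07), Idi1 (0.36), Fdps (0.24), Fdft1 (0.26), Sqle (1.09), Lss (0.39), Cyp51 (0.049), Msmo1 (0.84), Nsdhl (0.19), Hsd17b7 (0.51), Ebp (0.26), Dhcr7 (0.35), Srebf2 (1.60), Insig1 (0.38), Insig2 (0.35), Scarb1 (0.41), Mylip (1.61), Lipa (1.31), Npc1 (1.14), Stard4 (0.27), Soat2 (0.37) and Abca1 (1.56).

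With the replicate number as a block, 3643 genes, 13 lower synthesis enzymes, 4 lower and 2 higher uptake, storage and efflux genes were called, and among members the calls of Mvk and Pmvk alone changed. The labels do not say whether the numbers pair the samples. Deviations of same-numbered libraries correlated at -0.19, 0.11 and -0.20, and no Sirt5-/- library correlated best with its own number. With so few libraries a group, these values cannot decide whether the samples were paired. DESeq2 size factors, the stricter filter and removing mitochondrial genes changed no member's call.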

Other observations

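The ratio of a gene's estimated count to its TPM in a library, divided by the library's median ratio, follows the transcript length assigned to that gene. For Nsdhl it was 0.271, 0.363 and 0.445 in Sirt5-/- livers, against 1.08, 1.05 and 0.293 in Sirt5+/+ livers, with Sirt5+/+ replicate 3 inside the range of the Sirt5-/- libraries. The highest value was 3.99 times the lowest, a spread that 3.11% of all genes exceeded. As a result Nsdhl fell in counts but was at 63.4, 66.6 and 43.2 TPM in Sirt5-/- livers, against 69.7, 62.3 and 52.0 TPM in Sirt5+/+ livers, where the groups overlap. Scap had assigned length ratios of 0.552, 0.649 and 0.675 in Sirt5-/- livers, against 1.243, 1.28 and 0.509 in Sirt5+/+ livers. Sc5d ran the other way, at 2.83, 2.30 and 2.46 in Sirt5-/- livers, against 1.35, 1.27 and 2.87 in Sirt5+/+ livers. In all 3 genes Sirt5+/+ replicate 3, the library with 46.4% mitochondrial RNA, was nearer to the Sirt5-/- libraries than to the other Sirt5+/+ libraries.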
